A study of Rattus norvegicus with 12 samples.

Results

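Circular RNA (circRNA) was measured in the orbitofrontal cortex (OFC) of 12 adult male Sprague Dawley rats, aged 8 weeks on arrival, with 1 array per rat. The 6 rats that worked for heroin or sucrose were compared with 6 control rats, and all 12 of the 12 arrays of the series entered this comparison by their labels. In the first cohort, 3 rats self-administered intravenous heroin (0.03 mg/kg per infusion) and 3 self-administered saline through the same kind of jugular catheter, in 10 daily sessions of 6 h. In the second cohort, 3 uncatheterised rats worked for chocolate-flavoured sucrose pellets and 3 naive rats were put in the chamber with no programme running, in 10 daily sessions of 2 h. All tissue was taken right after the last session. The question was which circRNAs move one way with either reinforcer. Cohort was a block in the fit, so heroin was compared with saline and sucrose with naive before both effects were averaged. Surgery, session length and, in large part, array slide differed between the cohorts. So did the task of the controls, since saline rats could press a lever for infusions with cues and naive rats had no task. The sucrose effect therefore includes the task itself, which the heroin and saline rats shared, and the task and the reinforcer cannot be told apart in it.

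CircRNAs form when a downstream splice donor is joined to an upstream acceptor, which closes exons of a host gene into a ring without free ends. The ring resists the exonuclease RNase R, which the study used to remove linear RNA, and such rings are abundant in brain and often come from genes of the synapse. Many host genes give several rings, and a ring can change in level when its host transcript does not. The OFC takes part in assigning value to outcomes, whether a drug or food. A circRNA probe reads the joint where the ends of the ring meet. Host genes were known here for 75 circRNAs, those that the study listed as differing between heroin and saline. The remaining probes are given by their probe number, since no annotation for them was used here.

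The probe sequences on which the named results rest are given below, 5′ to 3′, as the study's supplementary list holds them. Capitals mark a run of at least 20 bases that a probe shares with another probe of the same host gene. The first 2, for Chd2 and Slc35e2b, had signals with the same sign with both reinforcers. The next 6, from Grin2b, Slc24a2, Slit1 and Lrrc2, are of host genes with a circRNA whose arrays separated in opposite directions. The last 7, from Anks1b and Ube2cbp, show how far probes of 1 host gene read the same sequence.
Chd2 rno_circRNA_000196: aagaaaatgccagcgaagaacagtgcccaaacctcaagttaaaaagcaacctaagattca
Slc35e2b rno_circRNA_013083: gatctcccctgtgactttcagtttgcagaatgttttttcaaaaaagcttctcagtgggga
Grin2b rno_circRNA_011731: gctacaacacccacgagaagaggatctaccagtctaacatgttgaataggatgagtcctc
Grin2b rno_circRNA_011733: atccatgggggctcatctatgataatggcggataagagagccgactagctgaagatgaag
Grin2b rno_circRNA_011734: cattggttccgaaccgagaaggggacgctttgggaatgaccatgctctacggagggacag
Slc24a2 rno_circRNA_012370: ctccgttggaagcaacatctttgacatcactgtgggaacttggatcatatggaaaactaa
Slit1 rno_circRNA_001230: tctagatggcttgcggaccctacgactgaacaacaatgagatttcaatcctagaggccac
Lrrc2 rno_circRNA_015869: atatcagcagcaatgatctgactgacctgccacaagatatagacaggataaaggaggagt
Anks1b rno_circRNA_015168: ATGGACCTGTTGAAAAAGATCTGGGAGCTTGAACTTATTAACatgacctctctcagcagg
Anks1b rno_circRNA_015171: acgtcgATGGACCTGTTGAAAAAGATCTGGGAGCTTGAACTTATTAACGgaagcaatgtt
Anks1b rno_circRNA_015180: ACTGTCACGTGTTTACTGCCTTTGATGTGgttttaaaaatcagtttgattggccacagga
Anks1b rno_circRNA_015182: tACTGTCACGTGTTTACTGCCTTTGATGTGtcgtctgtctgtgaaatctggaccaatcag
Ube2cbp rno_circRNA_016706: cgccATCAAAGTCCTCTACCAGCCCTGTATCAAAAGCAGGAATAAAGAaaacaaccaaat
Ube2cbp rno_circRNA_016710: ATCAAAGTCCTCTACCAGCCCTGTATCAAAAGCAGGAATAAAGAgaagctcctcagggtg
Ube2cbp rno_circRNA_016712: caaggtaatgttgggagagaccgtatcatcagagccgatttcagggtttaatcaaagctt

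Of 14145 circRNA probes, 13979 were tested, those with a signal well above background on 3 or more of the 12 arrays. Between 95.7% and 98.6% of the probes were above background per array. One slide held the heroin and saline arrays with sucrose 1 and 2, and the other held sucrose 3 and the 3 naive arrays, which also stood on one side of the first principal component of all arrays. The neuronal transcripts Map2 and Dlg4, read by probes for linear RNA, were well above background in every spot of every array. Across 39 such linear probes with a gene symbol, the median signal relative to the median circRNA probe of the array ranged from -2.96 to -1.97 on the log2 scale in the reinforced arrays. It ranged from -2.80 to -2.05 in the control arrays, and no linear probe separated all reinforced from all control arrays. Fewer cells of a type and less RNA per cell cannot be told apart in such bulk tissue.

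No circRNA differed between reinforced and control rats after adjustment over all probes. The smallest adjusted p (limma) was 0.534, and 563 probes shared it. At an unadjusted p below 0.05, 556 probes (3.98%) were higher and 699 (5%) were lower in the reinforced rats, together 8.98% of those tested. The methods' t-test on the same values called 1 probe, ASCRPR006657, at an adjusted p of 0.0194, and gave the next probe an adjusted p of 0.348. The typical change was small, with a median absolute log2 change of 0.10 against a median standard error of 0.11, and the median 95% interval reached 0.24 to either side of the estimate. The study's threshold, a fold above 1.5 at an unadjusted p below 0.05, was passed by 35 probes (0.25%), 25 of them higher (0.179%) and 10 lower (0.0715%). Those 35 were bright probes, with a median level of 8.95 on the log2 scale against 7.05 for all probes, and the brightest of 4 equal groups of probes held 24 of them. In 31 of the 35 the effect had the same sign in both cohorts, but only 5 had an unadjusted p below 0.05 in each cohort, while 8 had it with heroin alone and 20 with sucrose alone. Only 4 of the 35 have a host or circRNA name here. These are Slc35e2b and Dcbld1, lower in the reinforced rats, and Anks1a and rno_circRNA_009976, higher.

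Few circRNAs separated all 6 reinforced arrays from all 6 control arrays, while separation within 1 cohort was more frequent. In heroin against saline alone, 964 probes (6.9%) had an unadjusted p below 0.05 and none passed adjustment (smallest adjusted p = 0.270). In sucrose against naive, 1702 (12.2%) had it, 750 higher (5.37%) and 952 lower (6.81%), and 3 passed adjustment. All 6 reinforced arrays lay above all 6 control arrays for 12 probes (0.0858%) and below them for 22 (0.157%). Within cohorts, heroin did not overlap saline for 2085 probes (14.9%) and sucrose did not overlap naive for 1846 (13.2%). Both conditions were met in one direction by 105 probes (0.751%), 51 higher (0.365%) and 54 lower (0.386%) with either reinforcer. They were met in opposite directions by 176 probes (1.26%), of which 126 (0.901%) were higher with heroin and lower with sucrose and 50 (0.358%) the reverse. Without naive 3 there were more in the same direction (388) than in opposite ones (255). Counts within slides do not compare the direction with heroin to that with sucrose. Sucrose 1 and 2 stood with heroin against saline on one slide, and sucrose 3 alone against naive on the other. The same-direction probes were 5.04% of the heroin probes without overlap and 5.69% of the sucrose ones, and the opposite ones were 8.44% and 9.53%. Over all 13979 probes the signs of the effects matched for 51.4%, and the effects correlated across probes at r = 0.028 (rho = 0.050). Probes are not independent replicates, and all points of one axis come from the same 6 arrays. The median absolute change of the 105 was 0.31 on the log2 scale (range 0.11 to 0.66), and only ASCRPR012616 and ASCRPR012094 passed a fold of 1.5 (0.401% of all probes did at any p).

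**Figure D1:**
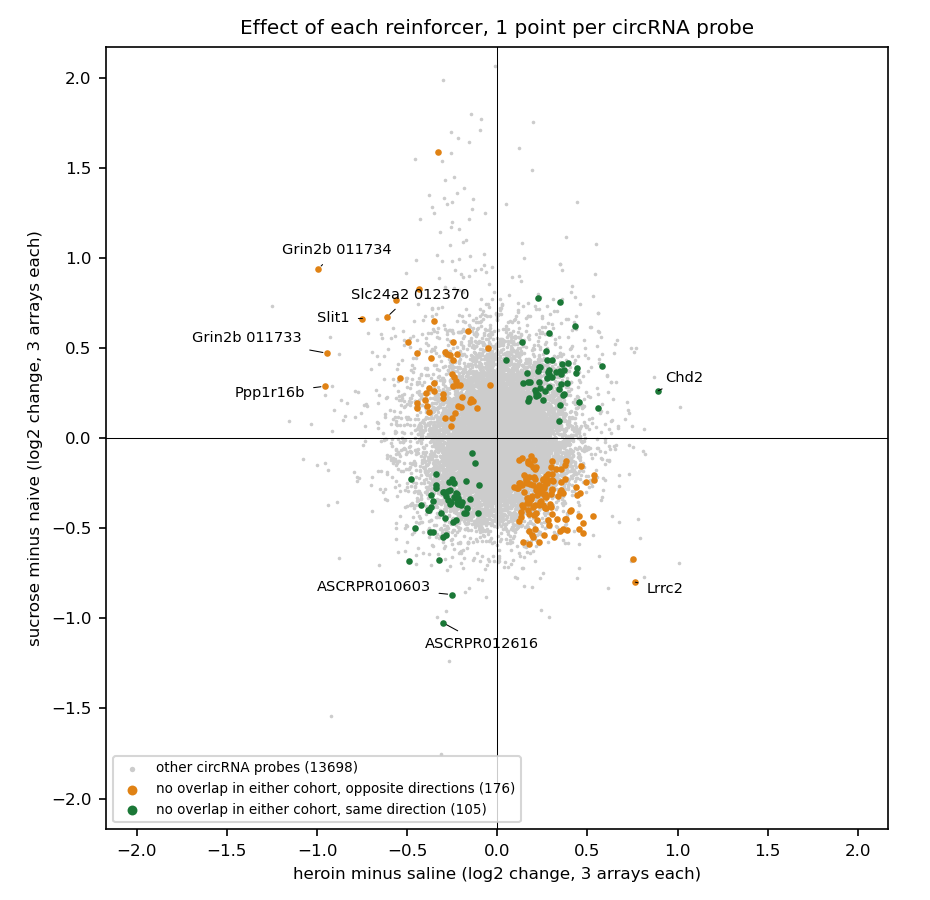
Log2 change of heroin minus saline (x axis) against sucrose minus naive (y axis), 1 point per circRNA probe, 3 arrays per group. Green points are the 105 probes without overlap in the same direction in both cohorts, orange points the 176 without overlap in opposite directions, and grey points the rest; the cloud has no diagonal (r = 0.028), and the lower right quadrant holds 126 of the orange points.

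Among the probes that lay higher with both reinforcers, the named one was Chd2, whose product remodels chromatin. Its exonic circRNA is listed at chr1:135818791-135859972 on the minus strand, in a genome build that the sources used here do not name. The Chd2 signal was 8.99, 8.76 and 8.50 (log2) in the heroin arrays against 7.94, 7.82 and 7.80 in the saline arrays. It was 8.16, 7.93 and 7.83 in the sucrose arrays against 7.60, 7.79 and 7.75 in the naive arrays. Each reinforced group lay above its own control, but the sucrose arrays overlapped the saline arrays. The pooled change was 0.58 ± 0.13 on the log2 scale (SE, n = 6 and 6), a fold of 1.49, with an adjusted p of 0.534. Most of it came from heroin, at 0.89 ± 0.14 (SE), against 0.26 ± 0.14 for sucrose. The heroin values put Chd2 on the study's list, so only the sucrose effect is independent of that choice. Sucrose 3, the only sucrose array on the slide of the naive arrays, lay 0.12 above the naive mean in Chd2, and without sucrose 1 the sucrose effect was 0.17.

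The 7 other leading rises came from probes without a host name here. They were chosen for having no overlap in either cohort and the largest pooled changes, so their separation is a description. ASCRPR006657 had the smallest pooled p of all probes, 0.000103, and its cohorts were alike. Its heroin arrays were at 10.99, 11.05 and 10.86 and its sucrose arrays at 10.98, 10.91 and 10.94. The saline arrays were at 10.54, 10.42 and 10.62 and the naive arrays at 10.50, 10.57 and 10.60. All 6 reinforced arrays thus lay above all 6 control arrays, with a gap that exceeded the spread within any group. The change in ASCRPR006657 was 0.44 ± 0.11 with heroin and 0.39 ± 0.11 with sucrose (SE), and 0.42 ± 0.08 pooled. ASCRPR013976 was at 5.85, 5.74 and 5.39 with heroin against 5.30 to 5.31 with saline, and at 6.04, 6.56 and 6.10 with sucrose against 5.31, 5.31 and 5.80 in naive rats. Naive 3 stood apart there from the 5 other control arrays. The dimmest of the rises, ASCRPR006816, was well above background on 2 heroin, 1 saline, 3 sucrose and 1 naive array. Its pooled change was 0.40 in the deposited values and 1.15 with background subtracted. The pooled changes of ASCRPR009263 (0.53), ASCRPR008815 (0.50), ASCRPR004643 (0.49) and ASCRPR014021 (0.44) made up the rest. In 5 of the 8 rises the sucrose effect was the larger.

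**Figure D2:**
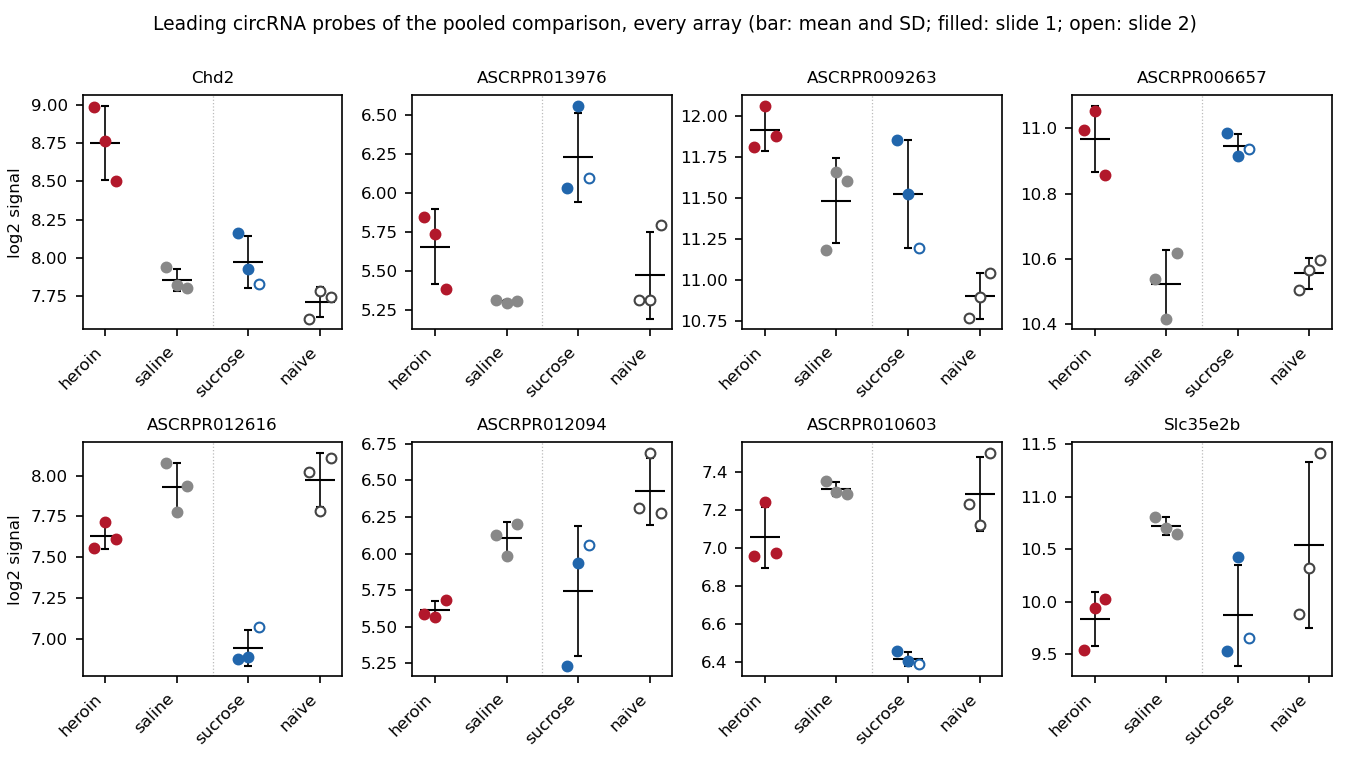
Log2 signal of every array (points, 3 per group) for 8 circRNA probes of the pooled comparison, with each group's mean and SD as bars, filled points for slide 1 and open points for slide 2. All but Slc35e2b are among the leading rises and falls, which have no overlap in either cohort. For ASCRPR006657 all reinforced arrays lie above all control arrays, while Chd2 separates mainly with heroin and ASCRPR010603 mainly with sucrose, and in Slc35e2b the sucrose and naive arrays overlap.

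The 8 leading falls were all larger with sucrose than with heroin, and none has a host name here. ASCRPR012616 had the largest of them and, with ASCRPR010603 and ASCRPR011048, was 1 of 3 probes (0.0215%) with an adjusted p below 0.05 in sucrose against naive. Its sucrose arrays were at 6.88, 6.89 and 7.07 against 8.02, 7.79 and 8.11 in naive rats. Its heroin arrays were at 7.56, 7.72 and 7.61 against 8.08, 7.78 and 7.94 with saline. All reinforced arrays lay below all control arrays, and the sucrose arrays formed a group of their own below the heroin arrays. The fall in ASCRPR012616 was -1.02 ± 0.13 with sucrose (adjusted p = 0.0223) and -0.30 ± 0.13 with heroin (SE), and the pooled change was -0.66 ± 0.13. In ASCRPR010603 the sucrose arrays lay between 6.39 and 6.46, below the lowest naive array at 7.12, and the heroin arrays were at 6.95, 7.24 and 6.97 against 7.28 to 7.35 with saline. The ASCRPR010603 effect was -0.87 ± 0.13 with sucrose (adjusted p = 0.0455) and -0.25 ± 0.13 with heroin (SE). ASCRPR011048 was -0.83 with sucrose and -0.16 with heroin, where its arrays overlapped. In background-subtracted values no probe had an adjusted p below 0.05 in sucrose against naive, and leaving out 1 array at a time gave between 0 and 98 such probes, 98 without sucrose 3 and 0 without each of 6 other arrays. ASCRPR005572 was the most even of the falls, at -0.46 ± 0.14 with heroin and -0.50 ± 0.14 with sucrose (SE). The remaining 5 had pooled changes of -0.59 (ASCRPR012094), -0.50 (ASCRPR008056), -0.45 (ASCRPR007174), -0.44 (ASCRPR007489) and -0.42 (ASCRPR006004). Of the 16 leading rises and falls, 4 had an unadjusted p below 0.05 for the difference between the effects (9.46% of all probes had), and none passed adjustment.

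With all arrays, most of the 75 circRNAs that the study listed for heroin did not keep their direction with sucrose. Without naive 3, 42 of the 75 did, so the balance rested on single arrays, as given below. The 75 were chosen on the heroin and saline arrays, so only the sucrose and naive arrays bear on them independently. All 75 were well above background on every array. With sucrose, 29 of 75 had the sign they had with heroin (38.7%, against 51.4% of all probes). Their median absolute change with sucrose was 0.19 on the log2 scale, against 0.15 over all probes. Of the 33 higher after heroin, 15 were higher with sucrose (48.3% of all probes were), with a median of -0.02. Of the 42 lower after heroin, 28 were higher with sucrose, with a median of 0.15, against -0.01 over all probes. At an unadjusted p below 0.05 in sucrose against naive (12.2% of all probes), 1 of 75 changed in the heroin direction and 10 changed in the opposite one, namely 7 of the 42 upwards (5.37% of all probes) and 3 of the 33 downwards (6.81%). None of these passed adjustment over all probes.

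**Figure D3:**
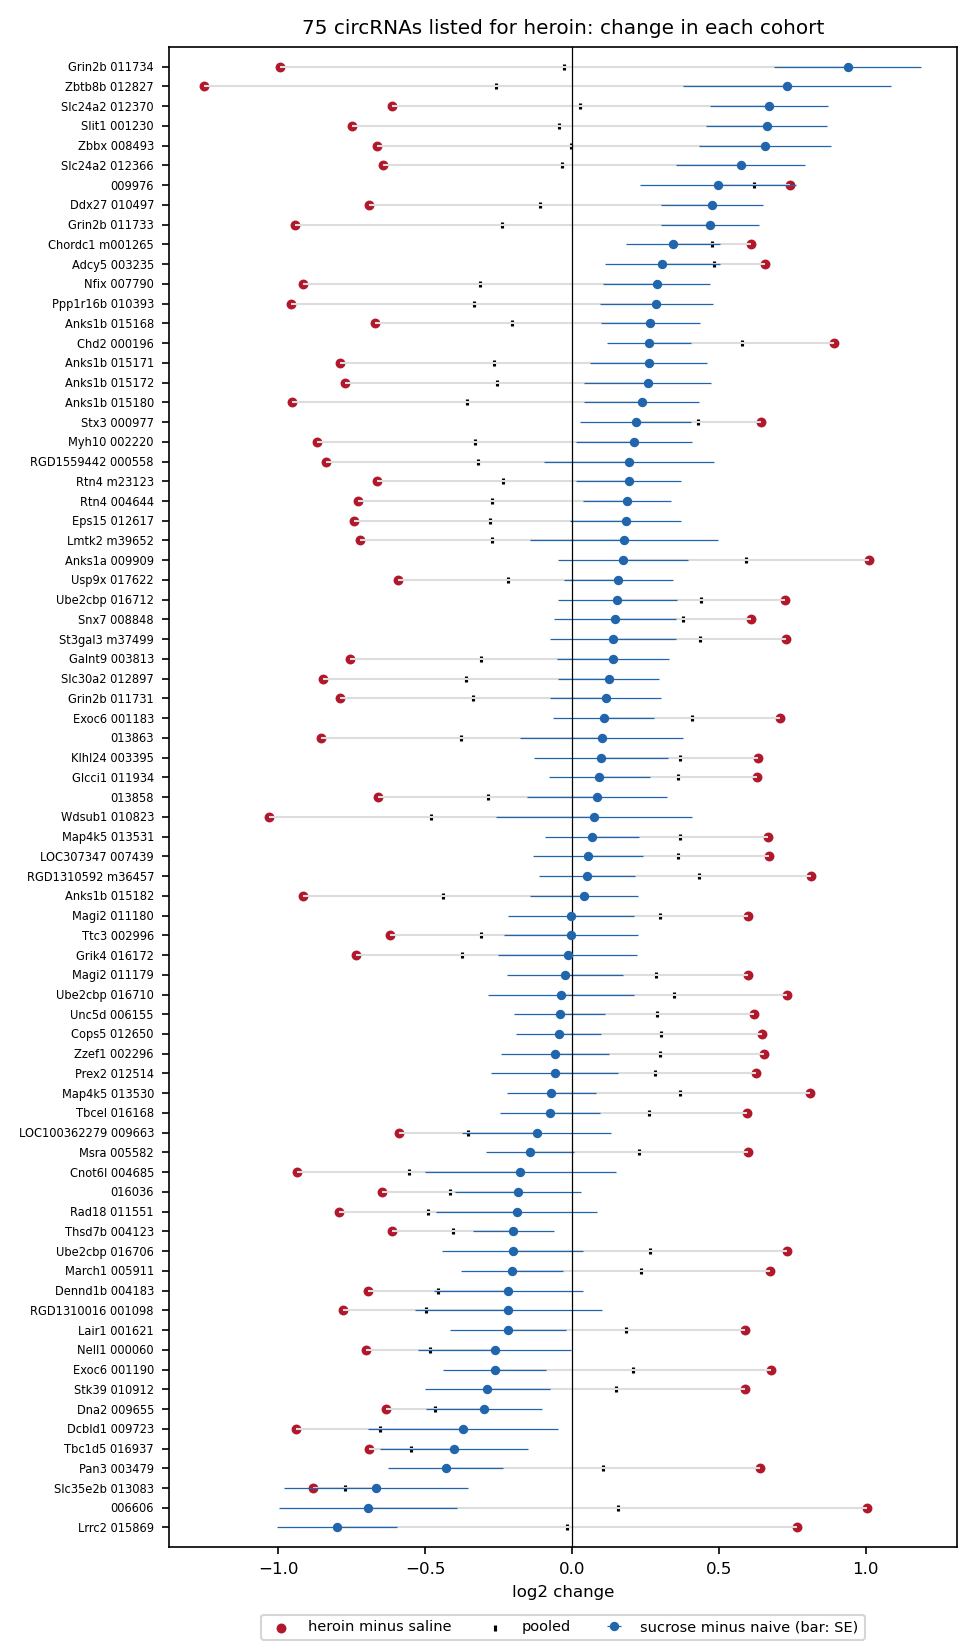
Log2 change of the 75 listed circRNAs (rows, host gene and circRNA number, an m before the number marking a mouse-derived name), ordered by the sucrose effect. Red points are heroin minus saline, blue points with SE bars are sucrose minus naive, black ticks are the pooled change and grey lines join the effects of 1 circRNA; 29 of 75 have both effects on the same side of 0, and most blue points lie nearer to 0 than the red ones.

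The count of 29 rested on single arrays. Naive 3 was the lowest of the 6 control arrays for 23 of the 42 listed circRNAs that were lower after heroin, and the highest for 19 of the 33 that were higher. The saline arrays were high in the 42 and low in the 33 by the choice of the list, so only the naive arrays compare freely. Naive 1 was the lowest control array for 9 of the 42 and naive 2 for 3. This rank was not taken over all probes. Among the 42, naive 3 lay a median of 0.33 below the mean of naive 1 and 2 on the log2 scale, and among the 33 a median of 0.27 above it. Dennd1b, whose product activates Rab GTPases in membrane traffic, was an example among the 42. Its circRNA was at 12.58, 12.58 and 11.47 in naive 1, 2 and 3, at 12.61, 12.43 and 12.69 with saline, at 11.77, 11.80 and 12.08 with heroin and at 11.72, 12.39 and 11.87 with sucrose. Naive 3 was thus lower than every reinforced array, while the other control arrays were all higher, and the pooled change of -0.46 in Dennd1b was -0.65 without naive 3. Without naive 3, 42 of 75 had the heroin sign with sucrose (56%, against 54.4% of all probes), and 41 had it when sucrose 3 alone was set against the naive arrays (54.7%, against 49.8%), which is what slide as a block leaves of this comparison. Leaving out sucrose 2 gave 38, and leaving out sucrose 1 or naive 2 gave 24. The naive arrays shared their slide with sucrose 3 only, so a difference between the slides and one between sucrose and naive rats cannot be told apart for sucrose 1 and 2.

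**Figure D4:**
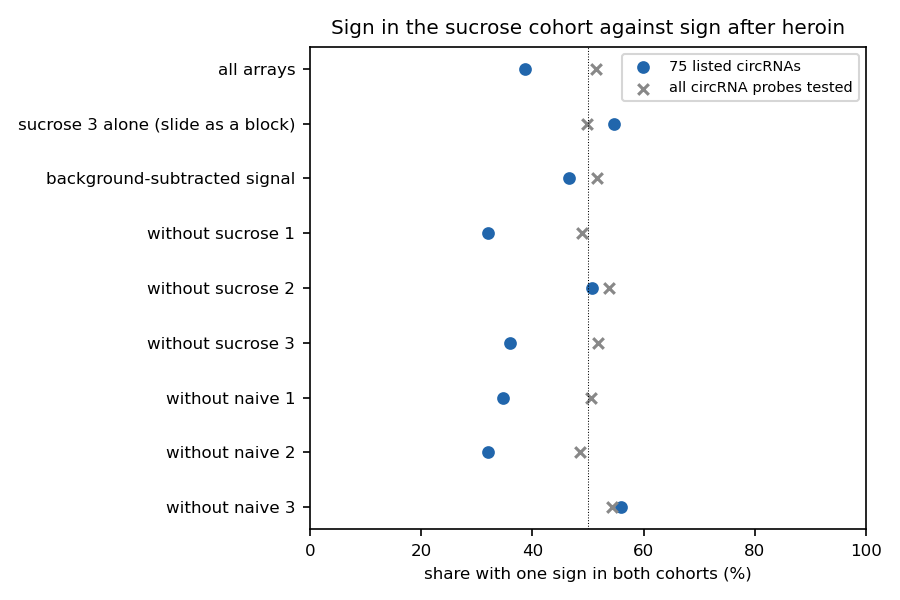
Share of circRNAs whose sucrose effect has the sign of the heroin effect (x axis, %), for the 75 listed circRNAs (blue points) and for all probes tested (grey crosses), under the settings on the y axis. The listed circRNAs are at 38.7% with all arrays, at 56% without naive 3 and at 54.7% for sucrose 3 alone, while all probes stay between 48.5% and 54.4%.

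Opposite effects were clearest for circRNAs of Grin2b, which encodes a subunit of the NMDA glutamate receptor. Rno_circRNA_011734 was at 7.70, 7.12 and 7.11 with heroin against 7.96, 8.65 and 8.31 with saline. It was at 9.26, 8.69 and 9.57 with sucrose against 8.31, 7.85 and 8.55 in naive rats. Heroin lay below both controls and sucrose above both, with no overlap. The sucrose effect was 0.94 ± 0.25 (SE, unadjusted p = 0.00214, adjusted p = 0.274) and the heroin effect -0.99, and the pooled change was -0.03 ± 0.30. The second Grin2b circRNA, rno_circRNA_011733, went the same way, at -0.94 with heroin and 0.47 ± 0.17 with sucrose (unadjusted p = 0.0136). The third, rno_circRNA_011731, was at -0.79 with heroin and 0.11 ± 0.19 with sucrose, where the arrays overlapped. Their probes share no run of 20 bases, so the 3 signals came from different sequence. With 1 array left out, the sucrose effect ranged from 0.74 (without sucrose 3) to 1.18 (without sucrose 2) for rno_circRNA_011734, and for rno_circRNA_011733 it had an unadjusted p of 0.065 without naive 2. Sucrose 3, on the slide of the naive arrays, lay 1.33, 0.47 and 0.27 above the naive mean in Grin2b rno_circRNA_011734, rno_circRNA_011733 and rno_circRNA_011731.

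Slc24a2 and Slit1 circRNAs had the same pattern. Slc24a2 encodes a sodium, calcium and potassium exchanger of neurons, and its rno_circRNA_012370 was at 8.27, 8.26 and 8.17 with heroin against 8.84, 8.91 and 8.79 with saline. It was at 8.62, 9.04 and 9.70 with sucrose against 8.35, 8.45 and 8.55 in naive rats, a difference of 0.67 ± 0.20 (SE, unadjusted p = 0.00478), and of 0.38 without sucrose 3 (unadjusted p = 0.0199). All naive arrays lay below all saline arrays in this circRNA, and sucrose 1 lay between them. Slit1, a secreted axon guidance cue, was at 9.02, 8.33 and 8.44 with heroin, 9.24, 9.60 and 9.18 with saline, 9.20, 8.65 and 9.29 with sucrose and 8.34, 8.25 and 8.56 in naive rats. Its sucrose effect was 0.66 ± 0.21 (SE, unadjusted p = 0.00597). All naive arrays lay below all saline arrays in Slit1 too, so that the heroin arrays overlapped the naive ones and the sucrose arrays overlapped the saline ones, across cohorts that also differ in slide. The Slit1 effect ranged from 0.54 (without sucrose 3) to 0.86 (without sucrose 2).

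The reverse pattern, higher with heroin and lower with sucrose, was seen in Lrrc2, which encodes a leucine-rich repeat protein. Lrrc2 was at 6.31, 6.64 and 5.93 with heroin against 5.21, 5.83 and 5.54 with saline, and at 5.44, 5.30 and 5.84 with sucrose against 6.26, 6.21 and 6.51 in naive rats. The sucrose effect was -0.80 ± 0.20 (SE, unadjusted p = 0.00146), and between -0.96 (without sucrose 3) and -0.69 (without sucrose 2) with 1 array left out. Pan3, a subunit of an mRNA deadenylase, was 0.64 with heroin and -0.43 with sucrose (unadjusted p = 0.0459). The intergenic rno_circRNA_006606 was 1.01 and -0.69 (unadjusted p = 0.037), and its sucrose effect was -0.32 without naive 3. The other 3 of the 10 opposite circRNAs were the second Slc24a2 ring rno_circRNA_012366 (0.58 with sucrose), Zbbx (0.66) and the RNA helicase Ddx27 (0.48), all lower with heroin. In Zbbx and Ddx27 sucrose 3 lay at the naive level, and without it the sucrose effects were 0.99 and 0.67. In rno_circRNA_012366 the effect was 0.33 without naive 1 and 0.91 without naive 3. Of the 10, 4 kept an unadjusted p below 0.05 without each array in turn (Grin2b rno_circRNA_011734, Slc24a2 rno_circRNA_012370, Slit1 and Lrrc2). In these 4, in that order, sucrose 3 minus the naive mean of its slide was 1.33, 1.25, 0.91 and -0.49. Ppp1r16b, a regulatory subunit of protein phosphatase 1, also separated in opposite directions, at -0.96 with heroin and 0.29 ± 0.19 (SE) with sucrose, but its sucrose effect had an unadjusted p of 0.157.

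**Figure D5:**
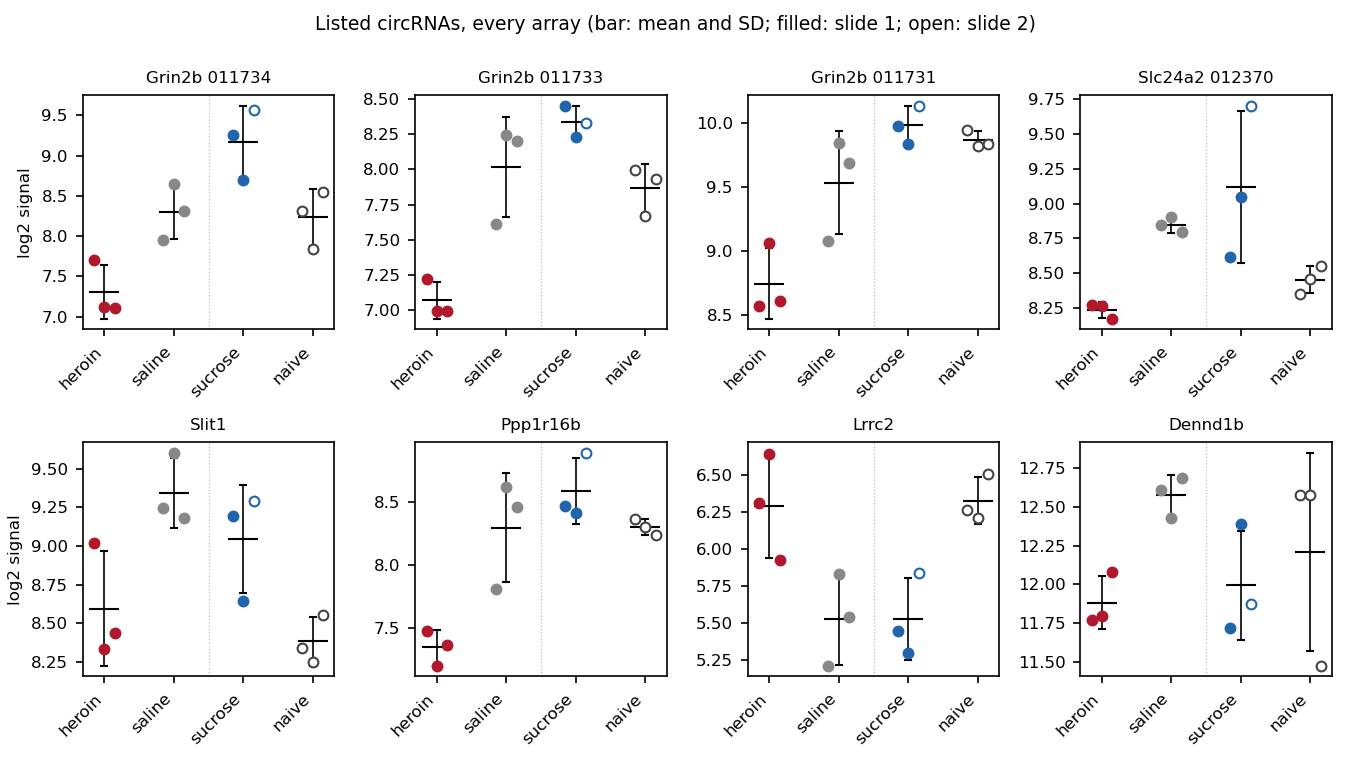
Log2 signal of every array (points, 3 per group) for 8 listed circRNAs, with each group's mean and SD as bars, filled points for slide 1 and open points for slide 2. In Grin2b rno_circRNA_011734 and rno_circRNA_011733, Slc24a2, Slit1 and Ppp1r16b heroin lies below saline and sucrose above naive, Lrrc2 is the reverse, Grin2b rno_circRNA_011731 overlaps in the sucrose cohort, and in Dennd1b naive 3 is the 1 control array below the heroin arrays.

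Several listed circRNAs had one sign in both cohorts, with the heroin effect the larger in each case named here. Since heroin chose them, their pooled values are not independent evidence of a shared direction. Of the 75, 29 had a pooled unadjusted p below 0.05 (8.98% of all probes), 17 higher (3.98%) and 12 lower (5%), a count that the heroin values partly fix. Slc35e2b, a member of a family of nucleotide sugar transporters, had the largest pooled change of them with all arrays. It was at 9.55, 9.94 and 10.03 with heroin against 10.81, 10.70 and 10.64 with saline, and at 9.54, 10.42 and 9.66 with sucrose against 9.88, 10.32 and 11.42 in naive rats. Heroin and saline did not overlap, but naive 1 lay below sucrose 2 and naive 3 lay far above. The Slc35e2b effect was -0.88 ± 0.31 with heroin and -0.67 ± 0.31 with sucrose (SE, unadjusted p = 0.0512), and -0.77 ± 0.22 pooled. Without naive 3 the sucrose effect on Slc35e2b was -0.23 and the pooled change -0.59. Chordc1, a co-chaperone of Hsp90, was the 1 listed circRNA with an unadjusted p below 0.05 for sucrose in the heroin direction, at 0.34 ± 0.16 (SE, unadjusted p = 0.0497) beside 0.61 with heroin. Without sucrose 2 it was 0.23 (unadjusted p = 0.201). Adcy5, an adenylyl cyclase that makes cyclic AMP, was 0.66 with heroin and 0.31 ± 0.20 (SE) with sucrose, and 0.17 with sucrose when sucrose 1 was left out. The sucrose arrays of Adcy5 were at 7.90, 7.57 and 7.38 against 7.19, 7.10 and 7.63, so they overlapped through naive 3. Over the 400 relabellings within cohorts, an exact two-sided permutation test of the pooled change gave p = 0.015 for Slc35e2b, p = 0.01 for Chordc1 and p = 0.02 for Adcy5, where the smallest possible p is 0.005. All 75 listed circRNAs separated heroin from saline, so that choice partly fixed these p-values, which do not bear on a shared direction.

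Among the others, Tbc1d5, which switches off a Rab GTPase, was -0.69 with heroin and -0.40 with sucrose, and the SNARE protein gene Stx3 was 0.64 and 0.22. The helicase and nuclease gene Dna2 was -0.63 and -0.30. Without naive 3 the sucrose effects of Tbc1d5, Stx3 and Dna2 were -0.65, 0.03 and -0.39. Sucrose 3 minus the naive mean of its slide was -0.16, 0.20 and 0.05, in that order, so Dna2 had the other sign there. The 3 other listed circRNAs past the study's threshold in the pooled comparison were Dcbld1 (-0.94 and -0.37), rno_circRNA_009976 (0.74 and 0.50) and Anks1a (1.01 and 0.17), an adaptor with ankyrin repeats. Without naive 3 their sucrose effects were -0.15, 0.82 and 0.22, in that order. In Anks1a the heroin arrays made the difference, at 7.24, 8.29 and 8.05 against 6.76, 6.97 and 6.81 with saline. Its sucrose arrays at 7.31, 7.03 and 7.41 overlapped the naive arrays at 7.25, 6.81 and 7.17.

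Rings of 1 host gene had one sign in the heroin cohort, which chose them, and not always in the sucrose cohort. There were 8 host genes with more than 1 listed circRNA, 21 circRNAs in all. The 5 rings of Anks1b, whose product is a postsynaptic adaptor, were between -0.95 and -0.67 with heroin and between 0.04 and 0.27 with sucrose. Without naive 3 the Anks1b range with sucrose was -0.13 (rno_circRNA_015182) to 0.15 (rno_circRNA_015168). Sucrose 3 lay 0.35 (rno_circRNA_015182) to 0.70 (rno_circRNA_015171) above the naive mean of its slide. None of the 5 had an unadjusted p below 0.05 with sucrose. Their probes are not 5 separate readings, since rno_circRNA_015168 and rno_circRNA_015171 share a run of 42 bases, the third of that set, rno_circRNA_015172, shares 26 and 27 with them, and rno_circRNA_015180 and rno_circRNA_015182 share 29. The 3 rings of Ube2cbp, which encodes a ubiquitin ligase, were each at 0.73 with heroin on the log2 scale. With sucrose rno_circRNA_016712, rno_circRNA_016710 and rno_circRNA_016706 were at 0.15, -0.04 and -0.20, none with an unadjusted p below 0.05. The Ube2cbp probes of rno_circRNA_016706 and rno_circRNA_016710 share 44 bases. In rno_circRNA_016706, sucrose 1 at 9.85 stood above sucrose 2 at 8.77 and sucrose 3 at 8.94, around the naive arrays at 9.05, 9.60 and 9.53. Only rno_circRNA_016712 of Ube2cbp had a pooled unadjusted p below 0.05, at 0.44 ± 0.16 (SE, unadjusted p = 0.0131), and its sucrose effect was -0.12 without sucrose 1. The 2 rings of Rtn4, the gene of the neurite growth inhibitor Nogo, were -0.73 and -0.66 with heroin and both 0.19 with sucrose. Without naive 3 the Rtn4 effects with sucrose were -0.01 for mmu_circRNA_23123 and 0.15 for rno_circRNA_004644. The 2 rings of the synaptic scaffold gene Magi2 were 0.60 with heroin in both cases and between -0.02 and 0 with sucrose. The Map4k5 rings were 0.81 and 0.67 with heroin and -0.07 and 0.07 with sucrose, and the Exoc6 rings 0.71 and 0.68 against 0.11 and -0.26.

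The listed circRNAs were also grouped by the role of the host gene. The groups are small, were formed with these values known and hold probes that share sequence, and differences between them were not tested. Beside the counts below, 12.2% of all probes had an unadjusted p below 0.05 with sucrose, 5.37% higher and 6.81% lower. All 4 glutamate receptor rings (3 of Grin2b and 1 of the kainate receptor subunit Grik4) were lower with heroin, and 3 of 4 were higher with sucrose, with a median of 0.29 and 2 at an unadjusted p below 0.05. Of 8 scaffold rings (Anks1a, Anks1b, Magi2), 6 were higher with sucrose, median 0.21, with none at that p. Of 4 transporter rings (Slc24a2, Slc30a2, Slc35e2b), 3 were higher, median 0.35, 2 at that p. Of 4 rings of axon growth genes (Rtn4, Slit1, Unc5d), 3 were higher, median 0.19, 1 at that p, and none kept the heroin direction. Of 7 traffic rings (Exoc6, Eps15, Dennd1b, Stx3, Snx7, Tbc1d5), 5 kept the heroin direction, median 0.11, with none at that p. Of 6 signalling rings (Adcy5, Prex2, Map4k5, Lmtk2, Stk39), 2 kept it, median 0.00. Of 7 rings of ubiquitin and protein turnover genes (Ube2cbp, Usp9x, Cops5, March1, Klhl24), 2 kept it, median -0.04. Of 3 rings of RNA turnover and helicase genes (Cnot6l, Pan3, Ddx27), 1 kept it, median -0.18, and 2 were opposite at that p. Of 4 rings of DNA and chromatin genes (Chd2, Nfix, Dna2, Rad18), 3 kept it, median 0.04. Over all probes the median sucrose change was -0.01 and 51.4% kept the sign.

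Of the 10 circRNAs that the study took on to qPCR, 3 kept the heroin sign with sucrose and also had a pooled unadjusted p below 0.05, namely Anks1a, Adcy5 and Cnot6l, a deadenylase subunit. Over all probes 51.4% kept the sign and 8.98% had that pooled p, which the heroin values that chose these circRNAs partly fix. Cnot6l was -0.94 with heroin and -0.18 with sucrose, and 0.01 with sucrose when sucrose 3 was left out. The other 7 were of the opposite sign with sucrose. These were Grin2b rno_circRNA_011731, Slc24a2 rno_circRNA_012370, Slit1, Rtn4 rno_circRNA_004644, Ube2cbp rno_circRNA_016706, the Rac activator Prex2 (0.63 and -0.06) and the kinase Lmtk2 (-0.72 and 0.18). The naive arrays of Lmtk2 were at 10.50, 10.86 and 12.18, and its sucrose effect was 0.67 without naive 3 (unadjusted p = 0.00624). By qPCR in larger cohorts, the study found circAnks1a and circUbe2cbp higher after heroin in both sexes, and circAdcy5 in females. These were also higher on the heroin arrays. It also found circGrin2b higher in males and circSlc24a2 in females, both lower on the heroin arrays here. With the sexes combined, the study reported significant regulation by heroin for all of these, and no sex by treatment interaction. CircUbe2cbp rose with sucrose in males but not in females by qPCR, against -0.20 on the male arrays here. The study reported no significant sucrose change in either sex for circGrin2b, circSlc24a2, circAnks1a and circAdcy5. For Slc24a2 rno_circRNA_012370 the sucrose effect on the arrays was 0.67. After heroin, no significant qPCR change was reported for circCnot6l, circRtn4, circPrex2 and circSlit1, and circLmtk2 was not amplified.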

How the data were processed

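CircRNA was measured on 1-colour Agilent arrays, 1 per rat, with 3 rats per group. Per the labels and methods, total RNA was digested with RNase R, labelled with Cy3 and scanned, and the deposited intensity of each spot is as Feature Extraction (version 11.0.1.1) wrote it. The authors also deposited a log2 table of the same arrays, quantile-normalized with limma, version not given in the sources used here. Each column had a median of 7.02 or 7.03 and followed the log2 intensity before background subtraction (r of 0.999 to 1.00) more closely than that after it (0.978 to 0.983). Background subtraction is not stated, and changes in dim probes are smaller in such values. The methods state both 8 and 12 samples, and all 12 arrays were used.

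The deposited log2 values were fitted, for probes that 3 or more of the 12 arrays had well above background, with limma (version 3.58.1, R version 4.3.3), reinforced against control with cohort as a block, and also as 4 group means. P-values were adjusted by Benjamini-Hochberg over 13979 probes. Single pooled changes were tested by an exact permutation within cohorts. Scripts were tested on simulated data. Slide and slide row came from the scanner files. The number of arrays limits the precision, and nothing in the labels ties a replicate number to a shared litter or day.

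The circRNAs named were the 8 largest pooled rises and the 8 largest falls among probes with no overlap in the same direction in both cohorts and a pooled unadjusted p below 0.05, the 10 taken to qPCR, listed circRNAs that met that condition (Chd2), and listed circRNAs of host genes with more than 1. Other listed circRNAs were named after their values were seen. The members and lists were chosen with earlier results of these data known. Names, positions and probe sequences are those of the study's supplementary list, of which 75 of 76 were used, 70 with a host gene. Lists of neurotransmitter receptors, splicing factors and cell type markers by host gene were not used here, since they need an annotation of all probes. Linear probes were named through RefSeq accessions (GRCr8). Alternatives were 3 other background and normalization settings, other filters, slide, slide row and replicate blocks, the methods' t-test, an intensity trend, array weights, each slide alone and each array left out.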

Additional observations from a re-analysis of the deposited data

Results flagged for a closer look

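For each of 90 named or listed circRNAs, the 6 reinforced and the 6 control arrays were searched for an array that stood apart from the others of its role, with a gap to its nearest neighbour, as a share of the whole range, above Dixon's critical value. Of 180 such sets, 13 had one. The nominal rate of this criterion is about 1 in 20, for independent sets from a single population. That rate does not apply here, since each set mixed both cohorts and the circRNAs were chosen on these arrays. Some of their probes also share sequence. The share was not taken over all probes, so no excess can be read from the 13 sets. Naive 3 was the lowest control array in 7 of them. Its gap was 0.787 of the range for Dennd1b (11.5 against 12.4 to 12.7, log2), 0.772 for RGD1310016 and 0.756 for Rad18, the gene of a ubiquitin ligase of DNA repair. It was 0.722 for rno_circRNA_016036, 0.668 for Nell1, 0.662 for LOC100362279 and 0.646 for Zbtb8b. Naive 3 was the highest control array for ASCRPR013976, with a gap of 0.972 (5.80 against 5.30 to 5.31).

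Naive 1 was the highest control array for Lair1, an immune receptor gene, with a gap of 0.64, and the lowest for Dcbld1, with a gap of 0.63. Saline 1 was the lowest control array for Grin2b rno_circRNA_011731 (0.701, at 9.08 against 9.69 to 9.95). Among the reinforced arrays, sucrose 2 was the lowest for the kinase gene Stk39 (0.671) and heroin 2 for the dim probe ASCRPR006816 (0.677).

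For 6 of the 75 listed circRNAs (8%) the arrays separated in opposite directions in the 2 cohorts. All 75 separated heroin from saline, and of all probes that did so 8.44% separated oppositely with sucrose, so that the list's share is near that of all such probes. In the same direction it was 1 of 75 (1.33%), against 5.04%. The heroin effect less the sucrose effect was -1.93 for Grin2b rno_circRNA_011734, -1.42 for Grin2b rno_circRNA_011733, -1.41 for Slit1, -1.28 for Slc24a2 rno_circRNA_012370, -1.24 for Ppp1r16b and 1.57 for Lrrc2 on the log2 scale. The adjusted p of this difference was 0.300 for all 6 (limma), and the heroin effect in it had chosen these circRNAs.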

How the results depend on the processing

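No probe had an adjusted p below 0.05 in the pooled comparison when any 1 array was left out, 1 had by the methods' t-test (ASCRPR006657) and 1 within slide 2, where 1 sucrose array met 3 naive arrays. The 1255 probes at an unadjusted p below 0.05 became 830 with slide row as a block and 773 (without naive 2) to 1799 (without naive 3) with 1 array left out. The 35 past the study's threshold became 150 and 147 with background subtracted (75th percentile and quantile scaling), 15 with normexp, 20 with a random slide block, 86 with slide row, 13 by the t-test, 53 and 646 within slides 1 and 2, and 18 (without sucrose 1) to 89 (without naive 3).

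The 105 probes without overlap in one direction and 176 in opposite ones turned into 208 and 138 within slides and 388 and 255 without naive 3. Their order thus reversed in both settings, and within slides it did so with naive 3 kept. With 1 array left out, where groups of 2 arrays separate more easily by construction, they ranged from 138 to 388 and from 227 to 392. Probes at an unadjusted p below 0.05 in both cohorts, 58 with one sign and 77 with opposite ones, became 144 and 62 without naive 3. They became 61 and 39 without saline 2. Their ranges with 1 array left out were 23 to 144 and 39 to 122. Heroin against saline gave 0 to 11 probes after adjustment and 576 to 1297 before it. Sucrose against naive gave 0 to 98 and 931 to 2704, with 0 after adjustment in either background-subtracted version and by the t-test, which gave 974 before it. The difference of effects gave 2 after adjustment with slide as a block, which leaves sucrose 3 alone against naive, and 0 to 6 and 951 to 1997 with 1 array left out.

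Replicate numbers did not pair the samples. With the replicate block, 895 probes had a pooled unadjusted p below 0.05, 32 passed the study's threshold, 29 had that p in both cohorts with one sign, and sucrose against naive gave 0 after adjustment. The pooled changes of named circRNAs reversed only within slide 2, to -0.10 for Ube2cbp rno_circRNA_016712 (ASCRPR003712), 0.35 for Anks1b rno_circRNA_015182 (ASCRPR011642) and 0.055 for Dna2 (ASCRPR004498). Slide 1 holds no naive array, so its values set heroin and sucrose 1 and 2 against saline without the cohort block. The causes of these shifts were not tested.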
